A study of Mus musculus with 12 samples.

Results

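Mitochondrial ribosomal proteins were followed in regulatory T cells (Treg) as the genes whose symbol begins with Mrpl or Mrps and a digit. The annotation of the array gave 80 probe sets of their own to 71 such genes, out of 22180 genes on the array with a probe set of their own. Of the 71 genes, 43 are Mrpl genes, named for the large subunit of the mitochondrial ribosome, and 28 are Mrps genes, named for the small subunit. The brightest probe set stood for each of the 9 genes with more than 1. A further 7 genes (Mrpl30, Mrpl33, Mrpl41, Mrpl43, Mrpl44, Mrpl53 and Mrps6) had only probe sets that the annotation shares with another gene, so they are not analysed here. No intensity filter was applied, so all 71 genes entered the test, and 68 of them lay above the median level of the 23521 probe sets tested.

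The mitochondrial ribosome sits in the mitochondrial matrix and translates the few messenger RNAs made from mitochondrial DNA, all of which encode subunits of the respiratory chain complexes and of ATP synthase. Its ribosomal RNAs come from mitochondrial DNA, while all of its proteins are encoded in the nucleus, made in the cytosol and imported. The large subunit carries the peptidyl transferase centre and the small subunit reads the messenger RNA. Part of the proteins descend from bacterial ribosomal proteins and the rest are found only in mitochondrial ribosomes. Proliferating T cells are known to build mitochondria and to depend on mitochondrial translation.

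All cells came from spleens of DEREG mice in which ovalbumin sensitization and challenge had produced allergic airways disease. DEREG mice carry a transgene in which Foxp3 regulatory sequences drive a diphtheria toxin receptor fused to green fluorescent protein, so that toxin removes Foxp3-expressing cells. The group iTreg was Treg from mice that received diphtheria toxin at 40 ng/g and then intravenous immunoglobulin (IVIg) at 2 g/kg. Whether these cells arose after the toxin or remained from before it was not tested. The group e_iTreg was Treg from mice given IVIg at 2 g/kg without toxin, labelled as a mix of endogenous and induced cells. The group eTreg was endogenous Treg from mice given human serum albumin at 2 g/kg as the control protein, without toxin. Treg were sorted by flow cytometry, each group had 4 biological replicates, and RNA was amplified in 2 rounds before hybridization. The design text gives toxin to iTreg alone, whereas the growth protocol, worded alike for every sample, mentions toxin before either protein. No group with toxin and albumin was analysed here, so iTreg and eTreg differ in both agents and their parts cannot be told apart. The labels give neither the age of the mice nor the gate of the sort.

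The Treg markers Foxp3, Il2ra, Ctla4 and Cd4 and the T cell marker Cd3e were strong in all 12 arrays, and none of the 6 Treg and T cell markers differed past the threshold in any comparison. Genes listed as markers of other cells moved between arrays. The mean log2 level of 13 B cell genes was 7.03 to 7.51 in iTreg, 6.13 to 7.95 in e_iTreg and 6.13 to 8.01 in eTreg, with the low values in e_iTreg replicate 4 and in eTreg replicates 3 and 4. The mean of 8 plasma cell genes was 7.15 to 9.20 in iTreg, 6.76 to 7.13 in e_iTreg and 6.70 to 7.02 in eTreg, and that of 13 myeloid genes was 7.02 to 8.16 in iTreg, 6.38 to 7.12 in e_iTreg and 6.45 to 7.12 in eTreg. Both were highest in iTreg replicate 4. The mean of 10 CD8 and NK cell genes was 6.85 to 7.31 in iTreg, 6.30 to 6.84 in e_iTreg and 6.21 to 6.80 in eTreg, so that no other array reached an iTreg array. In both iTreg comparisons the genes of these lists that passed as higher were Gzma (2.20 against eTreg) and Nkg7 (1.85) of the CD8 and NK list, Itgam (1.68) and Cst3 (0.57) of the myeloid list and Prdm1 (1.04) of the plasma cell list. Whether Treg themselves or other cells carried the RNA of these genes was not tested. The rest of the CD8 and NK list did not pass. Against eTreg Klrk1 was at 0.45, Cd8a at 0.28, Klrd1 at 0.20, Cd8b1 at 0.15 and Ncr1 at 0.05. Klrb1c at -0.20, Eomes at -0.15 and Prf1 at -0.09 went the other way. Siglech of the myeloid list was lower in iTreg than in e_iTreg, at -0.45 (limma adjusted p = 0.0298). No B cell gene passed. The part of these cells in the results on the members was not tested beyond leaving out arrays. The female transcript Xist and the Y-linked Eif2s3y were both present in 9 arrays, whereas Eif2s3y was low in iTreg replicate 4 (4.47) and eTreg replicate 3 (4.33) and Xist in e_iTreg replicate 4 (5.82). In bulk RNA of this kind, more cells of a type and more RNA per cell cannot be told apart.

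The promoters of 62 of the 71 genes were in the RefSeq table for GRCm38.p6, which gives 250 bases before to 50 bases after each start site. The 5 shown here belong to members that were higher in iTreg in both comparisons described further on and that differ in which motifs they hold. Capitals mark matches to 4 motifs searched on both strands: GCGCANGCG of NRF1, CCGGAAGT of GABPA and other ETS factors, AAGATGGCG of YY1, and the E-box CACGTG. Mrpl42 lies at chr10:95501900-95502199 on the minus strand, Mrpl51 at chr6:125191950-125192249 on the plus strand, Mrpl57 at chr14:57825989-57826288 on the plus strand, Mrps12 at chr7:28741772-28742071 on the minus strand and Mrps18c at chr5:100798509-100798808 on the plus strand. Each is written 5′ to 3′ on the strand of its gene.
Mrpl42: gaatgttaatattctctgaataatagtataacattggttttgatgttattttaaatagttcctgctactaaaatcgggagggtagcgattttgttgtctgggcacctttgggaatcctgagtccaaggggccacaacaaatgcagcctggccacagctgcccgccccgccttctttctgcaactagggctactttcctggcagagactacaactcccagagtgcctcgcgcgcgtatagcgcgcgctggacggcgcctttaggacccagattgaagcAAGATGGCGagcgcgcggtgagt
Mrpl51: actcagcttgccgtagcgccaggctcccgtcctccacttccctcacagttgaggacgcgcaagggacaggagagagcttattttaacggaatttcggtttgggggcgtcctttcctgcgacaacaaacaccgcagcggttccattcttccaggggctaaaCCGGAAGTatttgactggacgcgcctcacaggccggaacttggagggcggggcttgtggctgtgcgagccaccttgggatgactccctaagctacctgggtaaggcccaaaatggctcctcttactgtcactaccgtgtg
Mrpl57: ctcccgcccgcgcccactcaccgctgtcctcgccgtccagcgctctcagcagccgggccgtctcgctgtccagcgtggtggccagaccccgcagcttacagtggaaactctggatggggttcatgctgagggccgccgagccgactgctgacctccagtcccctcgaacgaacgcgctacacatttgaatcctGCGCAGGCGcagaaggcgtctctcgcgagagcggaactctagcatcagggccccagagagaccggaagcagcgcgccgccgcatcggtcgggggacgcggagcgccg
Mrps12: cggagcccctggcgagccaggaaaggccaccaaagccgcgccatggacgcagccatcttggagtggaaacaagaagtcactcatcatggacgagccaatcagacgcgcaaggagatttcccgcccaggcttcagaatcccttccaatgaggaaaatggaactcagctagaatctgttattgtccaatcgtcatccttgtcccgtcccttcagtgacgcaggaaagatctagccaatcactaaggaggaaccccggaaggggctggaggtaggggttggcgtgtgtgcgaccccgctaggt
Mrps18c: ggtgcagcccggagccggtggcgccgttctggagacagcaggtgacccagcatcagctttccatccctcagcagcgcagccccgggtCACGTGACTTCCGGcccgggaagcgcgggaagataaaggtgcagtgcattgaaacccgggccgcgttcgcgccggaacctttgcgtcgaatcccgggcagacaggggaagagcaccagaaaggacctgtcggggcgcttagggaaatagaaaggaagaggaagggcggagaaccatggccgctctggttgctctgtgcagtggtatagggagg

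The Mrpl42 window holds the YY1 motif at bases 278 to 286, within the transcribed part, and the Mrpl51 window holds the GABPA motif at bases 161 to 168. The Mrpl57 window holds the NRF1 motif at bases 194 to 202. The Mrps18c window holds an E-box at bases 88 to 93 directly followed by the GABPA motif on the other strand at bases 94 to 101, and the Mrps12 window holds none of the 4. NRF1 and GABPA are known activators of nuclear genes for mitochondrial proteins. Over the 62 genes, the NRF1 motif was in 14 (22.6%), the GABPA motif in 10 (16.1%), the YY1 motif in 8 (12.9%) and the E-box in 5 (8.06%). Among the 27025 genes of the table the shares were 7.03%, 4.31%, 1.64% and 8.09%, and among the 8879 that lay above the median level on the arrays they were 14.8%, 9.18%, 3.64% and 11.6%. Of these 62 genes with a promoter, 26 were higher in iTreg in at least 1 comparison and 36 in neither. The 26 held the NRF1 motif in 15.4% and the GABPA motif in 23.1%, against 27.8% and 11.1% of the 36. Those shares rest on 4 and 6 genes against 10 and 4, and a match is only a run of letters.

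The first comparison set Treg of mice given toxin and IVIg against endogenous Treg of albumin-treated mice. In iTreg, 20 of the 71 members were higher than in eTreg at an adjusted p of 0.05 and 0 were lower. Of all 23521 probe sets, 5.36% were higher and 4.63% lower by the same rule, and of the brighter probe sets above the median level 9.59% were higher. The median member was 0.22 higher on the log2 scale, while the median over all probe sets was -0.01. The test was limma's moderated test in 1 fit of the 12 arrays, with Benjamini-Hochberg adjustment over all probe sets tested. A difference above 0 was seen for 59 of the 71 members, against 46.7% of all probe sets. At an unadjusted p of 0.05, 34 members were higher and 2 lower, where 10.3% and 11.4% of all probe sets were. The 4 iTreg arrays lay wholly above the 4 eTreg arrays for 25 members (6.9% of all probe sets), and wholly below them for 1 (7.82%). The calls depended on which arrays were kept. Without the 3 arrays lowest in B cell genes (e_iTreg replicate 4, eTreg replicates 3 and 4) 1 member passed, and without the 3 arrays with the signal of 1 sex (iTreg replicate 4, e_iTreg replicate 4, eTreg replicate 3) 4 passed, both alternatives chosen after seeing the data. Calls over all probe sets fell too, from 1261 higher to 211 and 690. The large and small subunit medians were 0.20 and 0.10 without the first 3 arrays and 0.26 and 0.19 without the second, against 0.22 and 0.12 with all arrays. Over the 8 fits without a single array the count was 9 to 20, lowest without eTreg replicate 4, with 10 without eTreg replicate 3, 11 without eTreg replicate 2, 12 without iTreg replicate 1 or 3 and 13 without iTreg replicate 2.

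**Figure D1:**
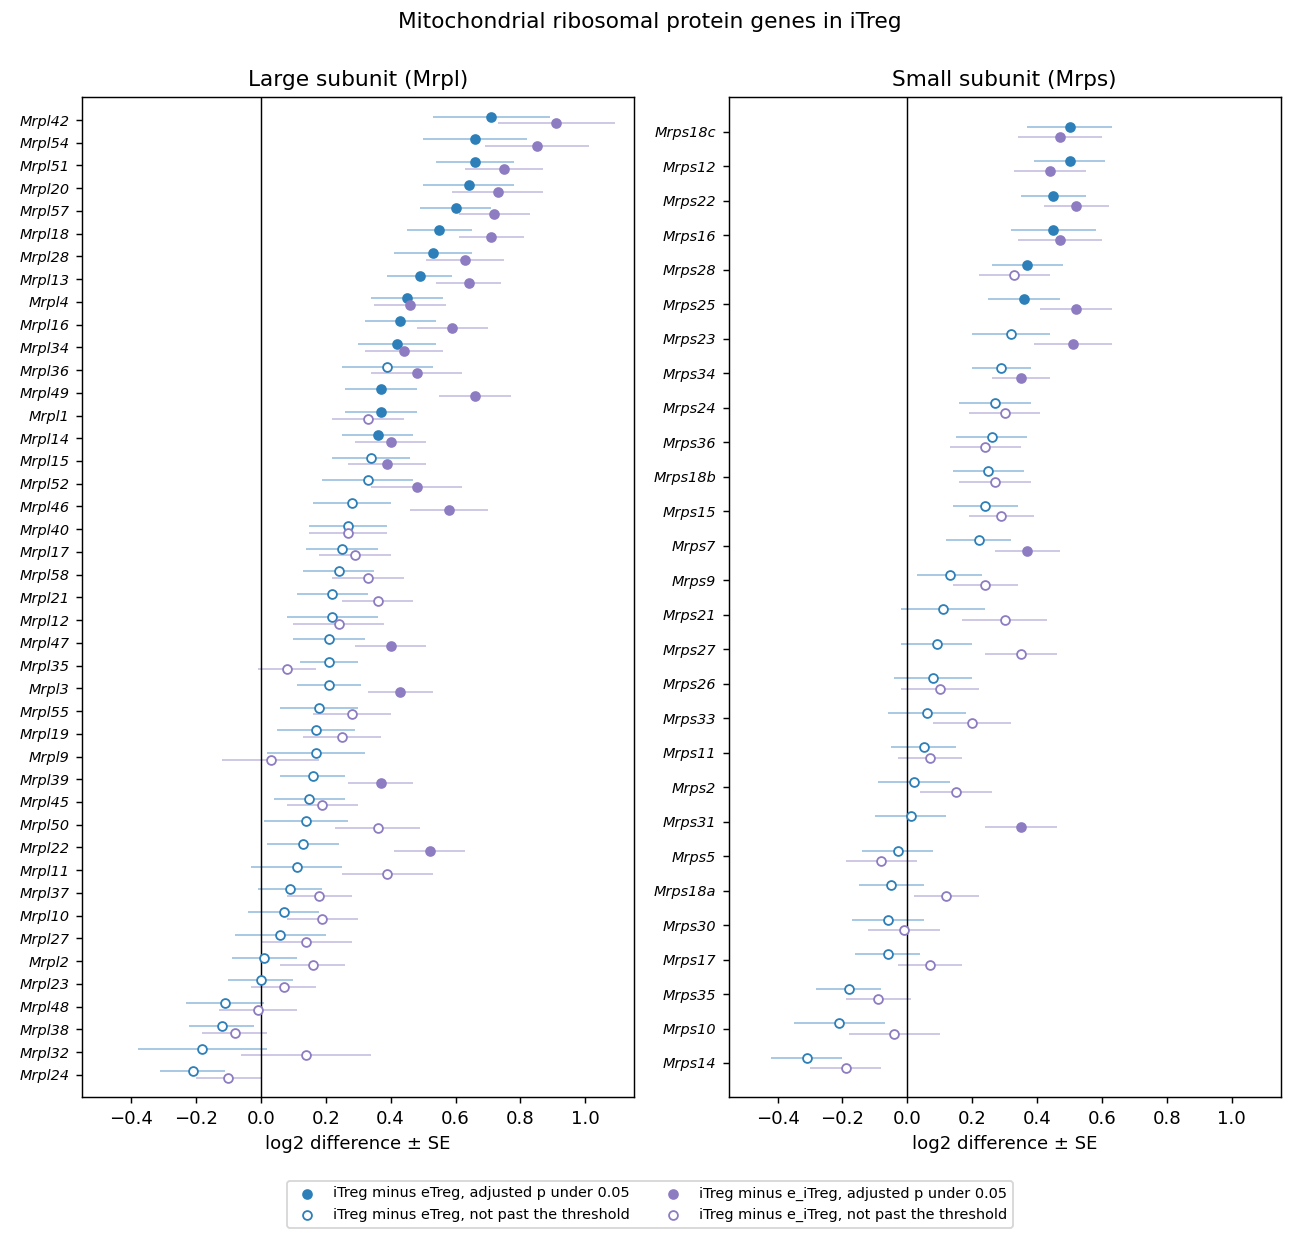
Log2 difference ± SE of all 71 members, large subunit genes on the left and small subunit genes on the right, each ordered by iTreg minus eTreg (blue), with iTreg minus e_iTreg in purple. Filled points passed an adjusted p of 0.05, and all of them lie to the right of 0, led by Mrpl42 at 0.71 and 0.91.

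Among large subunit genes, 14 of 43 were higher in iTreg than in eTreg, with a median of 0.22. Mrpl51, a protein found only in mitochondrial ribosomes, had log2 levels of 8.09, 8.24, 8.09 and 8.01 in iTreg, 7.25, 7.68, 7.36 and 7.13 in e_iTreg, and 7.64, 7.42, 7.27 and 7.46 in eTreg. Every iTreg array lay above every array of the other groups. Mrpl51 was 0.66 ± 0.12 higher in iTreg than in eTreg (SE, n = 4 each), a fold of 1.58, with a limma adjusted p of 0.00335. Mrpl57, a short mitochondria-specific protein that was earlier named Mrp63, had 8.12, 8.23, 8.13 and 8.44 in iTreg, 7.53, 7.62, 7.48 and 7.42 in e_iTreg, and 7.88, 7.58, 7.62 and 7.45 in eTreg. The iTreg arrays again lay above all others, and the difference from eTreg was 0.60 ± 0.11 (limma adjusted p = 0.00335).

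Mrpl18 belongs to the protein family that binds the 5S RNA in bacterial ribosomes. It had 7.77, 7.84, 7.71 and 7.67 in iTreg, 6.95, 7.25, 7.10 and 6.86 in e_iTreg, and 7.26, 7.04, 7.29 and 7.18 in eTreg. Here too iTreg stood apart from both groups, by 0.55 ± 0.10 from eTreg (limma adjusted p = 0.00344). Mrpl20, a relative of the bacterial assembly protein L20, had 7.42, 7.82, 7.55 and 7.64 in iTreg, 7.06, 7.02, 6.44 and 6.99 in e_iTreg, and 7.15, 6.98, 6.85 and 6.87 in eTreg. Its iTreg arrays lay above all others, while e_iTreg and eTreg overlapped, and the difference of iTreg from eTreg was 0.64 ± 0.14 (limma adjusted p = 0.00834).

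Mrpl42, another mitochondria-specific protein, had the largest difference of the 71 members in both comparisons and also one of the widest spreads. Its levels were 9.70, 9.79, 9.58 and 9.27 in iTreg, 8.58, 9.09, 8.42 and 8.58 in e_iTreg, and 9.37, 8.91, 8.53 and 8.68 in eTreg. The lowest iTreg array, replicate 4, lay below the highest eTreg array, replicate 1, so these groups overlapped. The difference from eTreg was 0.71 ± 0.18, a fold of 1.64 (limma adjusted p = 0.0217). Mrpl54, also mitochondria-specific, had 9.11, 9.27, 8.78 and 9.09 in iTreg, 7.89, 8.60, 7.98 and 8.37 in e_iTreg, and 8.62, 8.38, 8.49 and 8.12 in eTreg. Its iTreg arrays lay above all others, and it was 0.66 ± 0.16 higher than in eTreg (limma adjusted p = 0.0166). Mrpl28 at 0.53 and Mrpl13 at 0.49, both of bacterial families, completed the large subunit genes among the 10 with the largest rises. The other 6 large subunit genes that rose were Mrpl4, Mrpl16, Mrpl34, Mrpl1, Mrpl49 and Mrpl14, by 0.36 to 0.45.

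**Figure D2:**
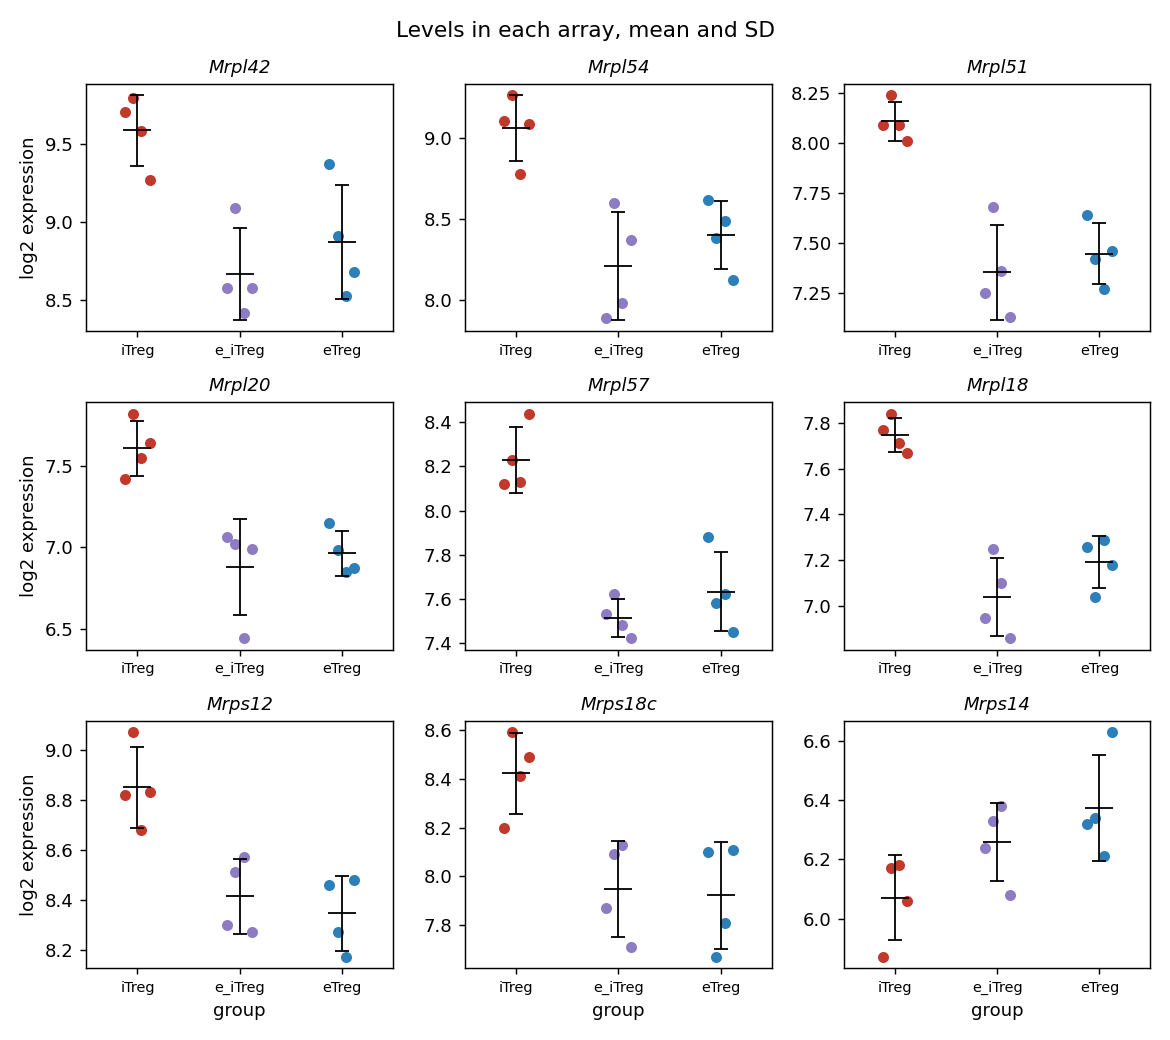
Log2 expression of 9 members in the 4 arrays of iTreg (red), e_iTreg (purple) and eTreg (blue), with the mean and SD in black. Points of iTreg lie above the other groups in Mrpl54, Mrpl51, Mrpl20, Mrpl57, Mrpl18, Mrps12 and Mrps18c, overlap eTreg in Mrpl42, and lie below eTreg in Mrps14.

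Among small subunit genes, 6 of 28 were higher in iTreg than in eTreg, with a median of 0.12. Mrps12, the relative of the bacterial decoding-site protein in which streptomycin resistance arises, had 8.82, 9.07, 8.68 and 8.83 in iTreg, 8.30, 8.51, 8.57 and 8.27 in e_iTreg, and 8.46, 8.27, 8.17 and 8.48 in eTreg. Every iTreg array was above every other array, with a difference from eTreg of 0.50 ± 0.11 (limma adjusted p = 0.0114). Mrps18c had 8.20, 8.59, 8.41 and 8.49 in iTreg, 7.87, 8.09, 8.13 and 7.71 in e_iTreg, and 8.10, 7.67, 7.81 and 8.11 in eTreg, a rise of 0.50 ± 0.13 (limma adjusted p = 0.025). The groups were again apart, though iTreg replicate 1 was only just above the highest eTreg array. Mrps22, a mitochondria-specific protein whose loss in humans causes a respiratory chain disorder, was 0.45 ± 0.10 higher (limma adjusted p = 0.0132). Mrps16, of a bacterial family, was 0.45 ± 0.13 higher (limma adjusted p = 0.0407), although iTreg replicate 4 at 10.85 was level with eTreg replicate 1 at 10.86. Mrps28 at 0.37 and Mrps25 at 0.36 were the other small subunit genes that rose.

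The 3 relatives of bacterial protein S18 did not move alike. Mrps18c rose, Mrps18b had a difference of 0.25 (limma adjusted p = 0.193) and Mrps18a one of -0.05. In structures of the mammalian ribosome Mrps18a lies in the large subunit, as does Mrps30, at -0.06, in spite of their names. Mrps36, at 0.26 (limma adjusted p = 0.171), is now known as a component of the 2-oxoglutarate dehydrogenase complex.

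Proteins of the stalk that recruits translation factors were not past the threshold: Mrpl12, which in human cells also binds the mitochondrial RNA polymerase, differed by 0.22, its partner Mrpl10 by 0.07 and Mrpl11 at the stalk base by 0.11. Mrpl3, near the peptidyl transferase centre, differed by 0.21 (limma adjusted p = 0.231), Mrps7, in the head of the small subunit, by 0.22 (0.239), and the RNA-binding protein Mrps27 by 0.09. No member fell past the threshold. Mrps14 had the most negative difference at -0.31 ± 0.11 (limma adjusted p = 0.116). Its levels were 5.87, 6.17, 6.18 and 6.06 in iTreg, 6.24, 6.33, 6.38 and 6.08 in e_iTreg and 6.32, 6.34, 6.21 and 6.63 in eTreg. The iTreg arrays lay wholly below the eTreg arrays. This gene was dim, with a mean of 6.24 over the 12 arrays, below the median level of 6.49 of the probe sets tested.

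The second comparison set iTreg against e_iTreg, both from IVIg-treated mice, so that toxin is the labelled difference. In iTreg, 30 of the 71 members were higher than in e_iTreg and 0 were lower, against 6.49% and 4.75% of all probe sets and 12% higher among the brighter ones. The median member was 0.33 higher, with a median of -0.07 over all probe sets, and 63 members lay above 0, against 36.7% of all probe sets. At an unadjusted p of 0.05, 46 members were higher and 0 lower, where 11.5% and 14.9% of all probe sets were. The arrays of iTreg lay wholly above those of e_iTreg for 34 members (7.57% of all probe sets) and wholly below them for 0 (9%). Without the 3 arrays lowest in B cell genes 15 members passed, and without the 3 arrays with the signal of 1 sex 14 did, while the probe sets called higher over the whole array numbered 881 and 747 in place of 1526. The large and small subunit medians were then 0.36 and 0.26, and 0.38 and 0.29, against 0.37 and 0.28 with all arrays. Leaving out e_iTreg replicate 1 or replicate 4 left 16, and leaving out iTreg replicate 3 left 19.

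Of the 43 large subunit genes, 21 were higher in iTreg than in e_iTreg, with a median of 0.37. The largest differences were those of Mrpl42 at 0.91 ± 0.18 (limma adjusted p = 0.00534), Mrpl54 at 0.85 ± 0.16 (0.00415), Mrpl51 at 0.75 ± 0.12 (0.00182), Mrpl20 at 0.73 ± 0.14 (0.00432), Mrpl57 at 0.72 ± 0.11 (0.00143) and Mrpl18 at 0.71 ± 0.10 (0.00112). For all 6 of these the iTreg arrays lay above every e_iTreg array. Mrpl49, a mitochondria-specific protein, had 8.96, 8.82, 8.86 and 8.61 in iTreg, 8.15, 8.29, 8.25 and 7.95 in e_iTreg and 8.54, 8.52, 8.26 and 8.48 in eTreg. It was 0.66 ± 0.11 above e_iTreg (limma adjusted p = 0.00221) and 0.37 ± 0.11 above eTreg (0.0474). Every e_iTreg array lay below every iTreg array, while e_iTreg and eTreg overlapped. Mrpl13 at 0.64, Mrpl28 at 0.63 and Mrpl16 at 0.59 completed the 10 with the largest rises.

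Mrpl22 differed mainly from e_iTreg. Its levels were 8.12, 8.29, 8.21 and 8.10 in iTreg, 7.69, 7.80, 7.40 and 7.77 in e_iTreg and 8.10, 8.18, 7.92 and 8.02 in eTreg. The iTreg and eTreg arrays overlapped, at a difference of 0.13, while every e_iTreg array lay below them. The difference of iTreg from e_iTreg was 0.52 ± 0.11 (limma adjusted p = 0.00615). Mrpl3, at 0.43 (limma adjusted p = 0.0129), also passed here. Mrpl11 at 0.39 (0.0901), Mrpl12 at 0.24 and Mrpl10 at 0.19 did not pass.

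Of the 28 small subunit genes, 9 were higher in iTreg than in e_iTreg, with a median of 0.28. Mrps22 at 0.52 ± 0.10 (limma adjusted p = 0.00551) and Mrps25 at 0.52 ± 0.11 (0.00617) led, followed by Mrps23 at 0.51, Mrps16 and Mrps18c at 0.47, Mrps12 at 0.44, Mrps7 at 0.37, and Mrps34 and Mrps31 at 0.35. Mrps18b at 0.27, Mrps27 at 0.35 (limma adjusted p = 0.061), Mrps18a at 0.12 and Mrps30 at -0.01 did not pass. For 3 genes the call depended on the probe set. The dimmer probe sets of Mrpl36, Mrpl47 and Mrps18c, at 0.03, 0.28 and 0.14, did not pass against e_iTreg where the brighter ones, at 0.48, 0.40 and 0.47, did. Both probe sets of Mrps16 passed in both comparisons, the dimmer at 0.63 against eTreg and 0.65 against e_iTreg.

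The comparisons share the iTreg arrays, so their lists are not independent. By call, 18 members were higher in iTreg in both, 2 against eTreg alone (Mrpl1 and Mrps28), 12 against e_iTreg alone and 39 in neither. Against e_iTreg, Mrpl1 and Mrps28 were both at 0.33, with limma adjusted p of 0.0598 and 0.0563. Of the 12, Mrps34 at 0.29 had a limma adjusted p of 0.0529 against eTreg, whereas Mrps31 was at 0.01.

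The third comparison set e_iTreg against eTreg, which differ by IVIg in place of albumin without toxin. No member passed in either direction, and neither did any of the 23521 probe sets in limma's fit (0%). At an unadjusted p of 0.05, 0 members were higher and 7 lower, against 4.53% and 2.48% of all probe sets. The members leaned to lower values: 63 had a difference below 0, against 41.1% of all probe sets and 55.8% of the brighter ones, with a median of -0.09. Some lists taken up further on leaned the same way. Below 0 were 13 of 14 mitochondrial translation factors (median -0.16) and 9 of 9 genes of mitochondrial DNA and RNA synthesis (-0.20). So were 19 of 23 genes for assembly of the mitochondrial ribosome (-0.10) and 9 of 10 mitochondria-encoded messenger RNAs (-0.10). Mitochondrial tRNA synthetases, with 10 of 16 below 0 (-0.08), and cytosolic ribosomal proteins, with 38 of 56 (-0.04), leaned lower too. Only 4 of 9 regulators of nuclear genes for mitochondria lay below 0 (0.00). Mrpl22 at -0.39 ± 0.11 and Mrps31 at -0.34 ± 0.11 had the smallest p, both with a limma adjusted p of 0.704, and for these 2 members the e_iTreg arrays lay wholly below the eTreg arrays (1.66% of all probe sets), while for 0 they lay wholly above (2.63%). Mrps31 had 7.44, 7.15, 7.35 and 7.49 in e_iTreg against 7.51, 7.73, 7.70 and 7.86 in eTreg. Mrpl49 and Mrpl46 followed at -0.29 each. In the other direction the smallest p belonged to Mrpl35 at 0.13, Mrpl9 at 0.14, Mrps12 at 0.07 and Mrps5 at 0.05. Across the groups, the mean was highest in iTreg for 59 members and lowest in e_iTreg for 56.

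Large and small subunit genes were then set side by side. The median difference of the large subunit exceeded that of the small subunit by 0.10 in iTreg minus eTreg and by 0.10 in iTreg minus e_iTreg, and the medians differed by -0.02 in e_iTreg minus eTreg. With Mrps18a and Mrps30 moved to the large subunit and Mrps36 left out, the gaps were 0.09, 0.06 and -0.01. For each array the median deviation of the members from their mean over the 12 arrays was taken. For large subunit genes it was 0.18, 0.30, 0.27 and 0.12 in iTreg, -0.26, 0.01, -0.19 and -0.19 in e_iTreg, and 0.05, -0.09, -0.08 and -0.08 in eTreg. For small subunit genes it was 0.10, 0.23, 0.16 and 0.04 in iTreg, -0.17, -0.02, -0.08 and -0.14 in e_iTreg, and 0.05, -0.02, -0.10 and -0.04 in eTreg. The large subunit separated iTreg from both groups, and in the small subunit iTreg replicate 4 came below eTreg replicate 1. The large minus small value was 0.08, 0.07, 0.11 and 0.08 in iTreg, -0.08, 0.03, -0.11 and -0.05 in e_iTreg, and 0.00, -0.07, 0.02 and -0.04 in eTreg. With subunits taken by name, each iTreg array thus exceeded each other array. The SD of this value between replicates was 0.045. The separation was not clear with subunits by structure. The large and small medians were then 0.28 and 0.25 in iTreg replicate 2, and 0.01 and -0.02 in e_iTreg replicate 2. The gap was 0.05 against eTreg without iTreg replicate 3, and 0.04 and 0.16 against e_iTreg without e_iTreg replicates 3 and 2. A rough split of the members by ancestry gave a smaller gap. Against eTreg 7 of 28 genes classed as mitochondria-specific passed with a median of 0.25, and 13 of 43 genes of bacterial families with a median of 0.21. The 28 included Mrps18a and Mrps18b, which are relatives of a bacterial protein, and Mrps36, so the split follows ancestry only in part. A split with these genes moved was not made.

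**Figure D3:**
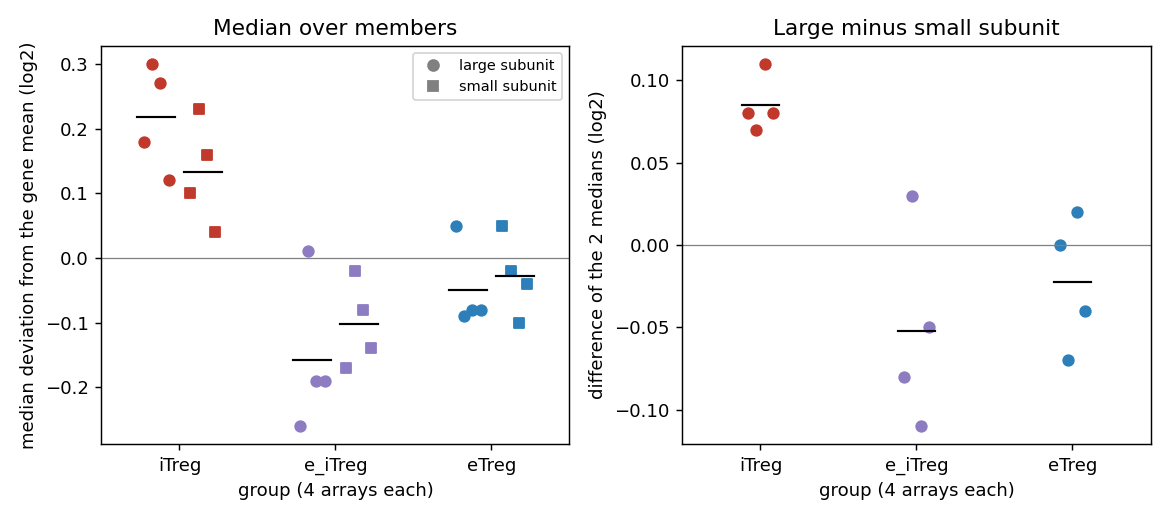
Left, median deviation of large (circles) and small (squares) subunit genes from their mean over 12 arrays, in log2 units, by array and group, with black lines at group means. Right, the large minus the small subunit median, which is 0.07 to 0.11 in the iTreg arrays and -0.11 to 0.03 in the others. Subunits are taken by gene name, and by structure the arrays were not clearly apart.

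Genes of the same process outside the ribosome did not all move with the members. The counts in these lists stand beside 5.36% of all probe sets higher and 4.63% lower than in eTreg. Against e_iTreg those shares were 6.49% and 4.75%. Of the brighter probe sets, 9.59% were higher than in eTreg and 12% higher than in e_iTreg. Of 14 mitochondrial translation factors, 0 were higher and 1 lower in iTreg than in eTreg, with a median of 0.11. The lower one was Rmnd1 at -0.49 (limma adjusted p = 0.0241), known in human cells as an anchor of mitochondrial ribosomes. Against e_iTreg 4 of the 14 were higher: the elongation factors Tufm at 0.41, Gfm1 at 0.54 and Tsfm at 0.57, and the release factor Mtrf1l at 0.32. That is 28.6%, beside 32.1% of the small subunit members, and 13 of the 14 lay above 0, with a median of 0.18. Of 23 genes for assembly of the mitochondrial ribosome, 2 were higher (8.7%, near the share of the brighter probe sets) and 1 lower than in eTreg. The RNA helicase Ddx28 had 8.29, 7.82, 8.16 and 8.30 in iTreg, 7.64, 7.96, 7.07 and 7.28 in e_iTreg and 7.50, 7.50, 7.30 and 7.32 in eTreg, 0.74 above eTreg (limma adjusted p = 0.0112). The GTPase Noa1 was 0.44 above eTreg and the RNA methyltransferase Nsun4 -0.60. Against e_iTreg the same 3 passed, at 0.65, 0.71 and -0.51.

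Of 16 mitochondrial tRNA synthetases, Sars2 alone (6.25%) was higher than in eTreg, at 0.54 (limma adjusted p = 0.0293). Sars2 and Rars2 (12.5%) were higher than in e_iTreg, at 0.50 and 0.65. Both shares were near those of all or of the brighter probe sets. Among 9 genes of mitochondrial DNA and RNA synthesis, the transcription factor Tfb2m was lower than in eTreg at -0.59, and none of the 9 passed against e_iTreg. Of 9 regulators of nuclear genes for mitochondria, the coactivator Ppargc1b at -0.51 and Myc at -0.40 were lower in iTreg than in eTreg, and Ppargc1b was lower than in e_iTreg at -0.42. A further 4 measured genes with other names encode proteins that are part of the mitochondrial ribosome or bind it (Dap3, Ptcd3, Gadd45gip1 and Oxa1l). None of these passed in either iTreg comparison, and the one with the smallest p against eTreg was Ptcd3 at -0.34 (limma adjusted p = 0.0705).

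Of 10 measured messenger RNAs that the mitochondrial ribosome translates, 3 fell in iTreg against eTreg and 0 rose, with a median of -0.28. Against e_iTreg 1 fell and 0 rose, with a median of -0.13 that was -0.06 with quantile normalization and -0.04 with median centring. ND6 lay above 0 in both comparisons, at 0.27 and 0.38, and did not pass. The complex I subunit ND5 had 11.89, 11.95, 11.86 and 11.82 in iTreg, 12.19, 12.25, 12.33 and 12.24 in e_iTreg and 12.31, 12.39, 12.24 and 12.27 in eTreg. Its iTreg arrays lay below all others, by -0.42 from eTreg (limma adjusted p = 0.00459) and -0.37 from e_iTreg (0.00928). ND2 at -0.56 and ND4L at -0.62 were the others that fell against eTreg, and against e_iTreg they stood at -0.28 and 0.11 and did not pass. Cytosolic ribosomal proteins gave a median of -0.13 against eTreg and -0.08 against e_iTreg, where median centring of the arrays turned the second to 0.01. Of 56 measured, only Rpl34 passed against eTreg, at 0.67, and Rpl34 and Rpl37 against e_iTreg, at 0.65 and 0.48. The probe set of Rpl37 was dim, with means of 6.21 in iTreg, 5.73 in e_iTreg and 5.97 in eTreg. All lay below the median level of 6.49 of the probe sets tested.

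**Figure D4:**
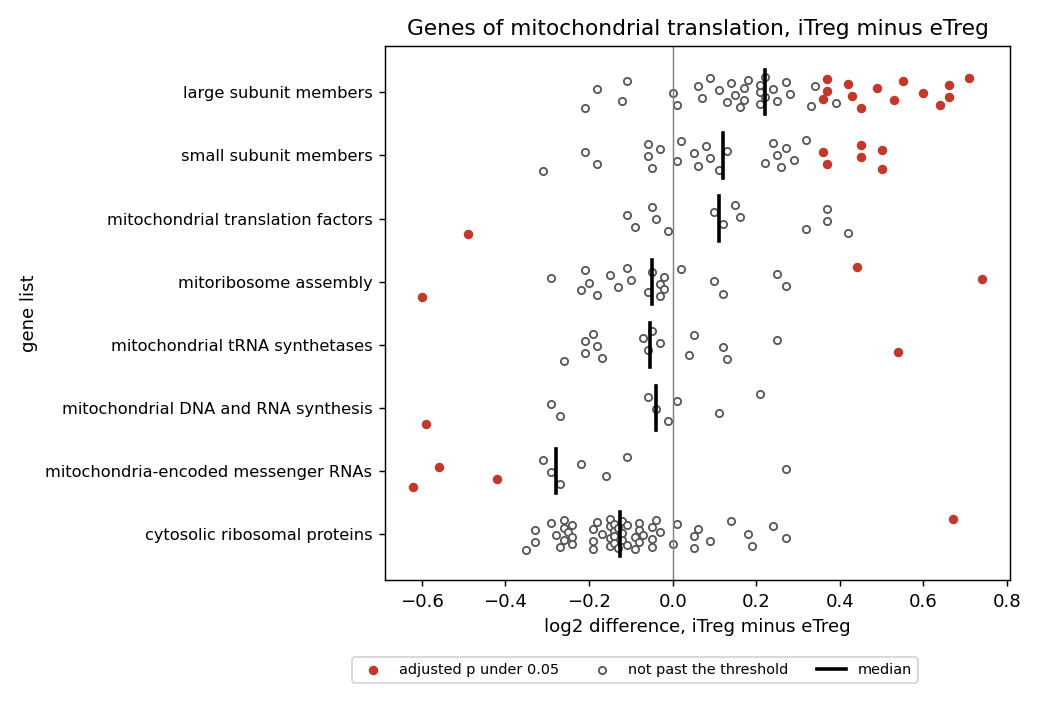
Log2 difference of single genes, iTreg minus eTreg, in 8 lists, with the list median as a black bar and genes past an adjusted p of 0.05 in red. The medians are 0.22 and 0.12 for large and small subunit members, -0.28 for mitochondria-encoded messenger RNAs and -0.13 for cytosolic ribosomal proteins.

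Cell cycle genes were also higher in iTreg. Of 24 such genes, 23 were higher in iTreg in either comparison, with medians of 2.24 against eTreg and 2.10 against e_iTreg. Their mean log2 level was 10.19, 9.81, 10.19 and 9.42 in iTreg, 8.51, 9.02, 7.72 and 7.48 in e_iTreg, and 8.98, 8.03, 7.87 and 7.41 in eTreg, so no other array reached an iTreg array. Within groups, eTreg replicate 1 and e_iTreg replicate 2 were highest in both the cell cycle genes and the member median, and iTreg replicate 4 was lowest in both. Other arrays did not rank alike: iTreg replicate 2 was highest of its group in the member median, at 0.27, but below replicates 1 and 3 in cell cycle genes, and e_iTreg replicate 1 was lowest in the member median, at -0.21, but above replicates 3 and 4 in cell cycle genes. In eTreg, replicate 4 was lowest in cell cycle genes and replicate 3 in the member median. The cell cycle level also ran in part with the B cell genes. Their mean was likewise highest of the group in eTreg replicate 1 (8.01) and e_iTreg replicate 2 (7.95). In e_iTreg both lists ranked the arrays alike, whereas in iTreg replicate 2 was lowest in B cell genes (7.03) and replicate 4 in cell cycle genes. The part of B cells in these levels was not tested. With the cell cycle mean as a covariate, an alternative chosen after seeing the data, 0 members passed in either iTreg comparison, where 4 of all probe sets were still higher than in eTreg and 9 higher than in e_iTreg. Against eTreg the medians were then 0.06 for large and 0.07 for small subunit genes, and against e_iTreg 0.20 for both. Because the cell cycle mean did not overlap between iTreg and the other groups, that fit separates it from the group only through the spread within groups, and their parts in the result cannot be told apart.

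**Figure D5:**
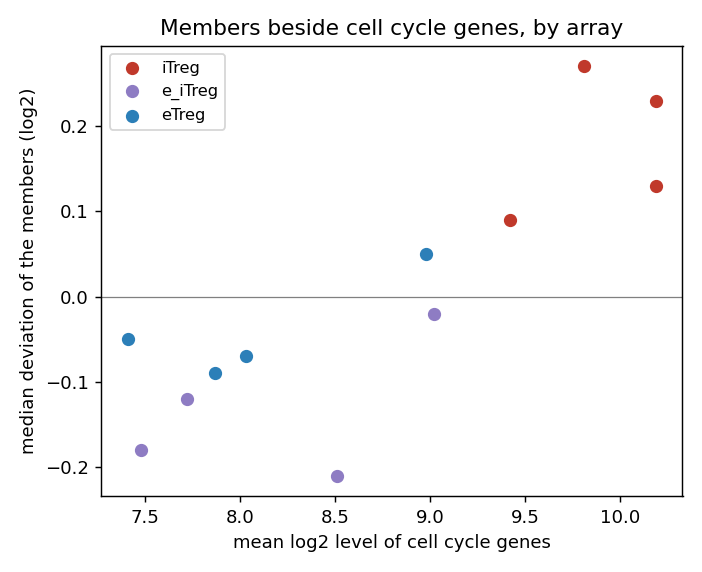
Median deviation of the 71 members from their mean over 12 arrays (log2) against the mean log2 level of 24 cell cycle genes, 1 point per array. The iTreg arrays (red) lie at 9.42 and above on the horizontal axis and the other arrays at 9.02 and below.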

How the data were processed

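RNA of sorted splenic Treg from 12 mouse samples, 3 groups of 4 taken from the sample titles, was labelled after 2 rounds of amplification and hybridized to Affymetrix mouse gene arrays, per the labels' protocols. The authors deposited log2 expression values made with RMA in the oligo package, per the submitters' processing notes; their versions are not given in the sources used here. RMA corrects background, quantile-normalizes probe intensities and summarizes them per probe set, so values show relative, not absolute, levels. The array medians of the deposited values ran from 6.28 to 6.50. Array number, not depth, limits precision, and the median SE of a difference was 0.121.

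The probe annotation gave 23521 of 41345 rows exactly 1 gene symbol, 1814 rows several and 16010 none; only the first kind was tested. Differences were tested with limma 3.58.1 in R 4.3.3 in 1 fit with a mean per group, 9 residual degrees of freedom and Benjamini-Hochberg adjustment over the 23521 rows. The fit was tested on simulated data. Whether replicates came from single or pooled mice is not given in the labels. In 9 arrays Xist (10.26 to 11.37) and the Y-linked Eif2s3y (7.12 to 9.72) were both present, so those samples held RNA of both sexes.

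Members, lists, tests and named genes were chosen with earlier results of these data known. Named were the 10 largest rises per iTreg comparison, the 4 smallest p in each direction of the third, members chosen by role, members whose probe sets disagree, and up to 4 genes per list; some genes further down, the promoters and the neighbours were picked after their values were seen. Alternatives were other scalings, row filters, probe set choices, spread estimates, thresholds, the replicate number as a block and leaving out arrays. Promoter sequences are RefSeq's for GRCm38.p6.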

Additional observations from a re-analysis of the deposited data

Results flagged for a closer look

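Of 96 group values tested for an array far from the other 3 of its group, 2 stood out, fewer than the 1 in 20 that chance gives. Mrpl20 was at 6.44 in e_iTreg replicate 3, where the other e_iTreg arrays lay between 6.99 and 7.06. The median deviation of the large subunit genes was 0.05 in eTreg replicate 1, where the other eTreg arrays lay between -0.09 and -0.08. That array was also the highest of its group in cell cycle genes, at 8.98. It was likewise highest in the B cell (8.01), plasma cell (7.02) and CD8 and NK cell (6.80) lists, but not in the myeloid list. The part of any of these in the value was not tested.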

How the results depend on the processing

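No alternative called a member lower in any comparison, and e_iTreg minus eTreg gave 0 in all. Members called against eTreg numbered 20, with 11 when all 41345 rows were tested, 5 with a 1.5-fold minimum and 9 to 20 over the fits without 1 array. The added alternatives left 1 without the 3 arrays lowest in B cell genes, 4 without the 3 arrays with the signal of 1 sex and 0 with the cell cycle covariate. The large and small subunit medians stayed at 0.20 and 0.10 and at 0.26 and 0.19 under the first 2 of these, against 0.22 and 0.12, while calls higher over all probe sets fell to 211 and 690 from 1261. Against e_iTreg the 30 became 10 with the 1.5-fold minimum, 16 to 34 without 1 array, and 15, 14 and 0 under the same added alternatives. Centring arrays on their median called 2066 probe sets higher and 521 lower in iTreg than in e_iTreg, against 1526 and 1117, and 40 members. The small subunit median was then 0.37. With the cell cycle covariate the large subunit median was 0.06 against eTreg, 0.20 against e_iTreg (small subunit 0.20), and large minus small -0.01 and -0.001. Without 1 array, large minus small ran from 0.05 to 0.13 and from 0.04 to 0.16.

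Replicate numbers showed no clear pairing of the samples: over 12 same-number pairs the correlation of deviations ran from -0.152 to 0.238, above 0.1 in 3. Between eTreg and e_iTreg they were 0.16, 0.067, 0.078 and 0.238, and between iTreg and either group both signs occurred. These values do not settle whether the samples were paired. With the replicate number as a block, 15 and 26 members were called. The median of the mitochondria-encoded messenger RNAs against eTreg was -0.23 with quantile normalization and -0.26 with median centring, with 3 lower in each. The median of the cytosolic ribosomal proteins against e_iTreg was 0.01 with median centring.

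For 52 named results, 1196 alternative values gave 117 calls lost, 9 gained and 18 reversals of sign, the latter all among small differences apart from Mrpl42. With the cell cycle covariate iTreg minus eTreg was -0.03 for Mrpl42 and Mrpl12, -0.11 for Mrpl10, -0.16 for Mrpl11 and -0.04 for Mrps27. Mrps27 was also -0.04 without the arrays lowest in B cell genes. Mrpl10 was -0.0012 without iTreg replicate 1, in a range up to 0.15 over the fits without 1 array. Without the arrays of 1 sex Mrps18a was 0.0016 and Mrps30 0.03, and without 1 array Mrps30 ran from -0.13 to 0.03, highest without eTreg replicate 3. Against e_iTreg Mrps30 was 0.08 with median centring and 0.03 without e_iTreg replicate 2 or 4 or either set of 3 arrays, in a range of -0.05 to 0.03 without 1 array. In e_iTreg minus eTreg Mrpl9 was -0.03 without eTreg replicate 4 (up to 0.22 without another array), and Mrps5 -0.02 with median centring or without eTreg replicate 1. The causes were not tested.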

Other observations

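Many members share a promoter region with a divergent neighbour. Of the 62 in the promoter table, 23 had a gene on the other strand starting within 1000 bases of their own start (37.1%), against 12.2% of all genes in the table and 19.2% of those above the median level on the arrays. The neighbours were looked up after the members' values were seen. Of the neighbours, 6 were higher in iTreg than in eTreg and 3 lower by the limma fit, where 5.36% of all probe sets were higher and 4.63% lower, and 9.59% and 8.42% of those above the median level.

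Mrpl57 and Ska3, a component of the outer kinetochore that binds spindle microtubules, start 76 bases apart, and Ska3 was 2.15 ± 0.36 higher in iTreg than in eTreg (limma adjusted p = 0.00213). Mrpl51 starts 614 bases from Ncapd2, a condensin subunit, which was 1.64 ± 0.28 higher (limma adjusted p = 0.0024). Mrps12 starts 147 bases from Sars2, the mitochondrial seryl-tRNA synthetase, at 0.54 (limma adjusted p = 0.0293), Mrpl18 238 bases from the chaperonin gene Tcp1 at 0.41 (0.0218), and Mrps18c 159 bases from the helicase gene Helq at 0.32 (0.04). In these 5 pairs both genes rose. Psma2, a proteasome gene 205 bases from Mrpl32, rose by 0.35 (limma adjusted p = 0.049) while Mrpl32 was at -0.18.

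Other pairs differed in direction. Mrpl14 rose by 0.36, while Tmem63b, which starts 131 bases away, was at -0.57 (limma adjusted p = 0.00807). Klc4, 141 bases from Mrpl2, was at -0.62 (limma adjusted p = 0.00162) with Mrpl2 at 0.01. Gga3, 224 bases from Mrps7, was at -0.56 (limma adjusted p = 0.00394), and Mrps7 was at 0.22 and did not pass. The members Mrpl46 and Mrps11 start 42 bases apart: against e_iTreg Mrpl46 rose by 0.58 (limma adjusted p = 0.0075) and Mrps11 was at 0.07 (0.696).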
